A study of Mus musculus with 5 samples.

Results

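Pendrin-positive intercalated cells are the cells of the renal collecting system that carry the chloride/bicarbonate exchanger pendrin, the product of Slc26a4. They were picked from single-cell RNA-seq of whole mouse kidney as barcodes that had 200 or more genes, no more than 30% of their UMIs from mitochondria, at least 2 UMIs of Atp6v1g3, at least 2 UMIs of Slc26a4, no fewer UMIs of Slc26a4 than of Slc4a1 and Aqp6 together, and no UMI of Ptprc, the leukocyte gene for CD45. Of 60043 kept cells, 555 met this rule. The comparison class, type A intercalated cells, met the same filters for Atp6v1g3 and Ptprc but held at least 2 UMIs of Slc4a1 plus Aqp6 and more of these than of Slc26a4, and it numbered 484 cells. A further 1044 cells passed on Atp6v1g3 and Ptprc and met neither rule.

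The kidneys came from male wild-type C57BL/6 mice that were 8 to 10 weeks old. Mice received aristolochic acid I, a plant nephrotoxin that injures the proximal tubule, at 3 mg/kg into the peritoneum every 3 days. There was 1 control library, described as baseline, while control mice were also described as receiving vehicle on the dosing schedule. Its week was taken as 0 and is not settled by the sources. The 2 AKI libraries came from week 2, the end of dosing, and the 2 CKD libraries from week 4, after 2 weeks without the toxin. Kidneys were digested with collagenase and DNase into suspension before droplet capture. The sources used here do not say whether a library held 1 kidney or a pool, so p-values measure the spread between these libraries, and the age of the mice cannot be told apart from the week of sampling.

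Intercalated cells are mitochondria-rich cells scattered among the principal cells of the connecting tubule and collecting duct. Type A cells secrete acid, with the vacuolar proton pump (V-ATPase) on the side facing the urine and the anion exchanger AE1 (Slc4a1) facing the blood. Pendrin-positive cells, which include type B cells, secrete bicarbonate and reabsorb chloride through pendrin in the apical membrane, and they carry the bicarbonate transporter AE4 (Slc4a9) in the membrane facing the blood. Both arise from a precursor that depends on the forkhead factor Foxi1.

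The pendrin-positive cells were unevenly spread over the libraries, with 289 in the control. AKI 1 held 38 and AKI 2 held 29, while CKD 1 held 186 and CKD 2 held 13. Depth was uneven as well. The median pendrin-positive cell held 22855 UMIs in the control, 23516.5 and 24375 in the AKI libraries and 29954 in CKD 2, but 5339.5 in CKD 1, so that the largest injured library was also the shallowest. Median mitochondrial shares were 22.3% in the control and between 10.7% and 15.003% in the other 4 libraries. Barcodes shared with another library numbered 5 in the control and 1 in CKD 1. No doublet caller was run, and the level of genes of other cell types is given beside the results they move with.

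The gate on Slc26a4 caught the cells at different points of their range. Slc26a4 reached a median of 29 UMIs per pendrin-positive cell in the control, 30.5 and 25 in the AKI libraries and 36 in CKD 2, against 3.5 in CKD 1. In CKD 1, 63 of the 186 cells sat at the limit of 2 UMIs, and 122 cells just outside it had 1 UMI. In the other libraries 8, 2, 2 and 0 cells sat at the limit and 27, 16, 7 and 3 cells had 1 UMI, for the control, AKI 1, AKI 2 and CKD 2. Summed over the cells of a library, Slc26a4 was at 14.2 UMIs per 10000 UMIs in the control, 12.9 and 13.6 in AKI and 10.6 and 12.8 in CKD. These are the values that chose the cells and are given as a description.

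**Figure D1:**
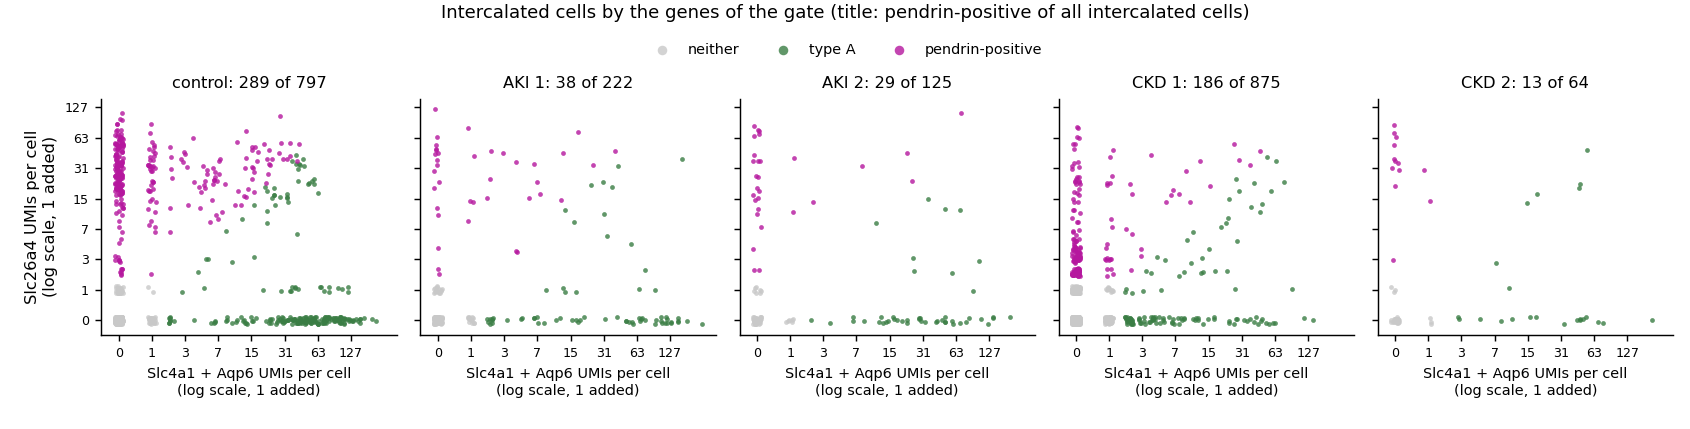
UMIs of Slc26a4 (y axis) against UMIs of Slc4a1 plus Aqp6 (x axis), both on log scales with 1 UMI added and a small random offset per point, in each cell that passed the Atp6v1g3 and Ptprc filters, with 1 panel per library and the 3 sets of cells in colour. Most cells lie along an axis, some carry genes of both gates, and in CKD 1 the pendrin-positive cells crowd at low counts, with a median of 3.5 UMIs of Slc26a4.

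The label was checked against Hmx2, Insrr and Slc4a9, which were proposed as markers with results of these data in view. Hmx2 (GRCm39 chromosome 7, 131150502 to 131159744, plus strand) is a homeobox transcription factor gene. Insrr (chromosome 3, 87704246 to 87723408, plus strand) encodes the insulin receptor-related receptor, which senses alkaline pH. Slc26a4 itself lies on chromosome 12, from 31568169 to 31610244 on the minus strand. All 3 markers were present together in 404 of the 555 pendrin-positive cells, in 67 of the 484 type A cells and in 9 of the 1044 cells that met neither rule. Of the 34 pendrin-positive cells with none of the 3, 33 were in the shallow CKD 1 library. Among cells with at least 10000 UMIs, all 3 markers were present in 251 of 259 cells of the control. The same held for 32 of 36 and 25 of 28 cells of the AKI libraries, and for 52 of 63 and 11 of 12 of the CKD libraries. In type A cells of that depth all 3 were present in 18.0% in the control, 15.5% and 7.32% in AKI and 27.3% and 26.3% in CKD. The markers were therefore more frequent in pendrin-positive than in type A cells in every library once the cells were deep.

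Droplet data carry free RNA, so the markers were also read in T lymphocytes, which should lack them. After each cell was thinned to 2000 UMIs, Slc4a9 was detected in 65.5% of pendrin-positive cells of the control, 64.9% and 46.4% in AKI and 43.6% and 69.2% in CKD. In T lymphocytes thinned in the same way it was detected in 3.59% of cells of the control and in 0.161% to 1.51% of cells of the other libraries. Slc26a4 was detected in 5.29% of thinned T lymphocytes of the control and in at most 1.91% elsewhere. The control therefore had the highest share of T lymphocytes with these transcripts, far under the share in gated cells for Slc4a9. Before thinning, 549 UMIs of Slc26a4 lay in 8.35% of the 1161 T lymphocytes of the control. Whether these UMIs came from free RNA or from doublets was not tested.

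**Figure D2:**
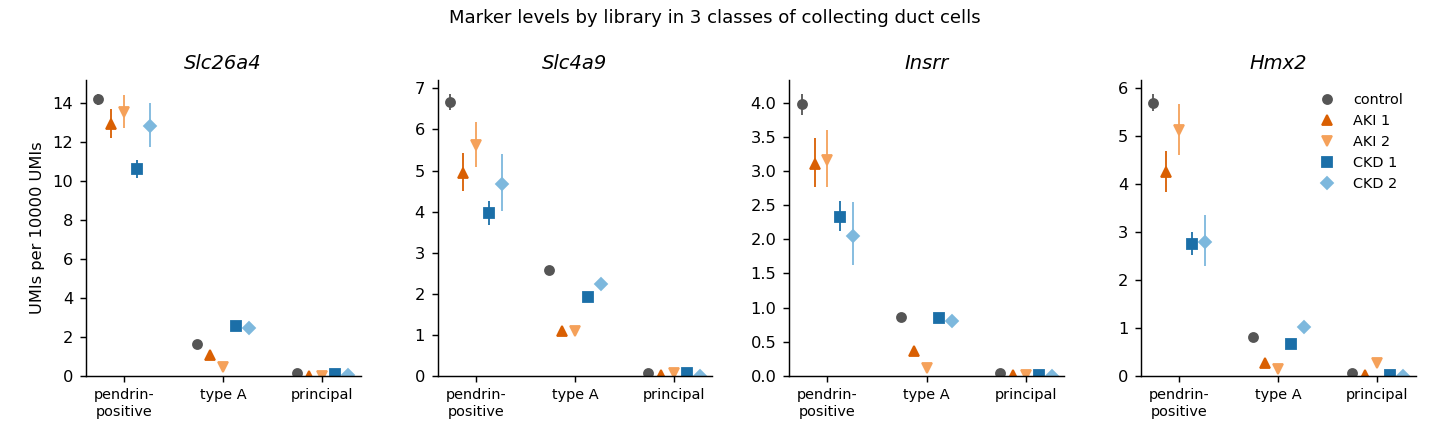
Levels of Slc26a4, Slc4a9, Insrr and Hmx2 in UMIs per 10000 UMIs (y axis) in pendrin-positive, type A and principal cells (x axis), with 1 point per library and bars for the 95% Poisson interval of the pendrin-positive sums. The pendrin-positive points lie above both other classes for each gene in each library, from 2.04 for Insrr in CKD 2 to 14.2 for Slc26a4 in the control. Slc26a4 chose the cells, so its separation was set by the gate and is shown as a description.

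Pendrin-positive cells were next compared with type A cells within each library. UMIs were summed per library and class, and the quasi-likelihood test of edgeR was fitted with the library as a block and Benjamini-Hochberg adjustment. Of 8688 genes tested, 1350 (15.5%) differed at an adjusted p under 0.05, with 693 (7.98%) higher and 657 (7.56%) lower in pendrin-positive cells. Hmx2, Dcn, Syt7 and Myo5a were higher and Dmrt2, Elf5, Kit and Adgrf5 lower in pendrin-positive cells in all 5 libraries.

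Hmx2 was at 5.70 UMIs per 10000 in pendrin-positive cells of the control, 4.25 and 5.12 in AKI and 2.74 and 2.78 in CKD. In type A cells it was at 0.805, then 0.271 and 0.139, then 0.667 and 1.01, so the classes did not overlap. The difference was 3.06 ± 0.30 (SE) on the log2 scale (5 libraries, adjusted p = 1.30e-06, edgeR quasi-likelihood test). Insrr differed by 2.49 ± 0.27 and Slc4a9 by 1.68 ± 0.16, with adjusted p of 3.71e-06 and 1.32e-06 in the same edgeR test. Insrr lay between 2.04 and 3.98 in pendrin-positive and between 0.107 and 0.862 in type A cells, and Slc4a9 between 3.96 and 6.67 against 1.09 and 2.57. Slc4a9 was thus the marker with the smallest contrast between the classes.

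The largest rise was that of Dcn, the matrix proteoglycan decorin, at 3.36 ± 0.30 log2. It was at 0.523 UMIs per 10000 in the control, 0.441 and 0.996 in AKI and 0.691 and 1.17 in CKD, against 0.0164 to 0.146 in type A cells. Dcn is better known from fibroblasts, and the summed level of the fibroblast and pericyte list (Col1a1, Col3a1, Pdgfrb and Acta2) was at 0 in pendrin-positive cells of AKI 1, AKI 2 and CKD 2, at 0.0261 in the control and at 0.252 in CKD 1. Principal cells held 0.468 of Dcn in CKD 1 and at most 0.0515 in the other libraries. T lymphocytes held 0.0567 to 0.263, the highest in CKD 2. The part of other cells in the level of Dcn was not tested. Sh2d4b was higher by 3.10, the anthrax toxin receptor gene Antxr1 by 3.06 and Aldh1l2, a mitochondrial enzyme of folate metabolism, by 3.05 log2. Syt7, a calcium sensor of membrane fusion, was higher by 2.90, Myo5a, a motor that carries vesicles along actin, by 2.87, the phosphate transporter gene Ank by 2.78 and the membrane protein gene Pmp22 by 2.76. Among these genes the adjusted p ran from 1.15e-09 for Myo5a to 1.02e-06 for Antxr1 (edgeR quasi-likelihood test).

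Myo5a was at 0.662 UMIs per 10000 in pendrin-positive cells of the control, 1.37 and 0.775 in AKI and 2.50 and 1.89 in CKD, and it never exceeded 0.324 in type A cells. Aldh1l2 was at 0.284 in the control, 1.61 and 1.08 in AKI and 1.21 and 1.71 in CKD, and at 0.0183 to 0.324 in type A cells. Both genes were lowest in the control in each class.

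On the type A side, Dmrt2, a transcription factor gene of type A cells, was at 1.37 UMIs per 10000 in the control, 1.45 and 1.93 in AKI and 1.09 and 1.94 in CKD. In pendrin-positive cells it was at 0.0399, 0.183, 0.138, 0.0536 and 0, and the difference was -4.31 ± 0.24 log2 (adjusted p = 4.19e-09, edgeR quasi-likelihood test). The epithelial factor genes Elf5 and Klf5 were lower by -4.23 and -2.93 log2. Neither was particular to type A cells. Elf5 was at 0.373 to 0.787 UMIs per 10000 in principal cells, above the 0.101 to 0.303 of type A cells. Klf5 was higher in principal than in type A cells in each injured library. Kit, a receptor tyrosine kinase gene (chromosome 5, 75735576 to 75817404, plus strand), was lower by -2.67, and the adhesion receptor gene Adgrf5 by -2.61. The mucin gene Muc20, Lrrc31, Pgm5, the carbonyl reductase gene Cbr2, the acetylcholinesterase gene Ache and the transcript 2610016A17Rik completed the list of the largest falls, from -4.17 to -2.64 log2, with Muc20 at -4.02. Ache too was higher in principal cells, at 0.292 to 0.839 UMIs per 10000 against 0.101 to 0.443 in type A cells. Muc20 was also present in principal cells, at 0.622 to 1.65 against 1.47 to 2.64 in type A cells. The part of principal cells in these falls was not tested. Dmrt2, Muc20, Elf5 and Pgm5 were among those with no UMI in the 13 pendrin-positive cells of CKD 2. Of the 4 type A identity genes outside the gate that could be tested, Kit, Adgrf5 and Dmrt2 were thus lower, while Spink8, a protease inhibitor gene, was higher by 1.82 log2 in pendrin-positive cells.

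**Figure D3:**
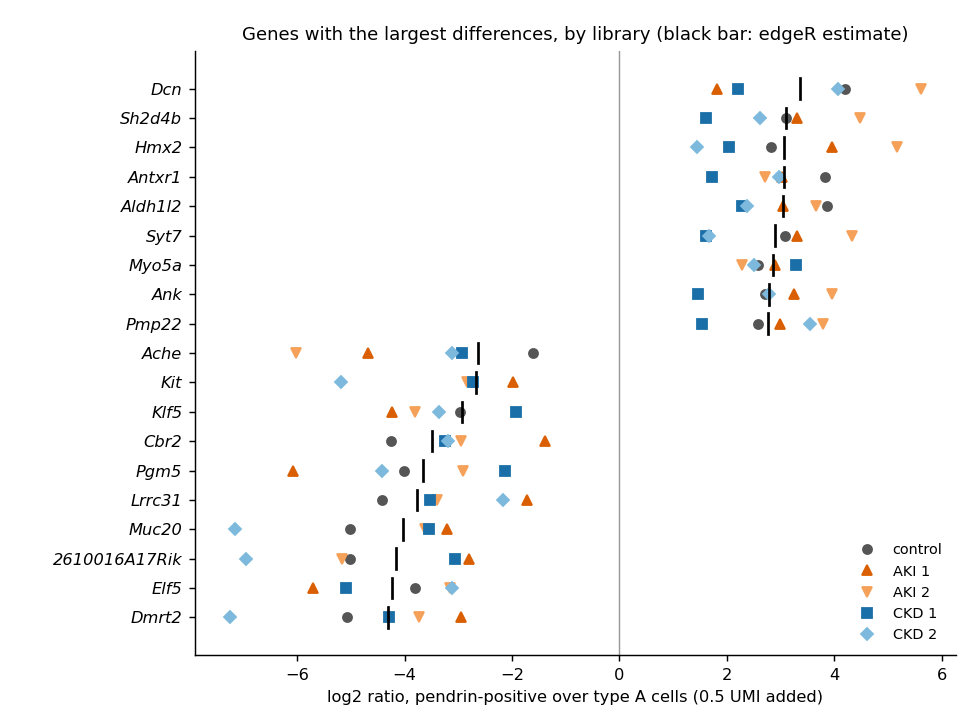
Log2 ratio of pendrin-positive to type A cells (x axis, levels in UMIs per 10000 with 0.5 UMI added) for 9 of the largest rises and the 10 largest falls (y axis), with 1 point per library and a black bar for the edgeR estimate. Every point of the upper genes lies on the right of 0 and every point of the lower genes on the left, with edgeR estimates from -4.31 for Dmrt2 to 3.36 for Dcn.

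The proton pump was expressed more highly in pendrin-positive cells. Of 20 V-ATPase genes tested, 13 were higher and none lower, beside 7.98% and 7.56% of all genes tested. The median over the 20 was 0.46 log2 beside -0.00478 over all genes tested. Atp6v1c2, a subunit isoform of the cytosolic sector, rose by 0.91 log2, from 2.73 to 4.91 UMIs per 10000 in type A to 4.94 to 7.56 in pendrin-positive cells. Atp6ap2, an accessory subunit also known as the prorenin receptor, rose by 0.84, and Atp6v0c and Atp6v0b, which form the membrane ring, by 0.68 and 0.61 (adjusted p at most 1.10e-04 for these 4 genes, edgeR quasi-likelihood test). Atp6v1b1, the subunit typical of intercalated cells, did not pass, with a difference of -0.14 ± 0.12 log2 and an adjusted p of 0.509 in the edgeR test. Atp6v1g3 was part of the gate and was not tested.

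Of 20 acid-base and chloride transport genes tested, 9 were higher and 3 lower, beside 7.98% and 7.56% of all genes tested. The membrane-bound carbonic anhydrase genes Car15 and Car12 rose by 1.52 and 1.32 log2 (adjusted p = 9.62e-08 and 7.04e-06, edgeR quasi-likelihood test). Car15 was at 24.3 UMIs per 10000 in pendrin-positive cells of the control, 29.2 and 28.2 in AKI and 22.6 and 26.8 in CKD, above the 6.65 to 12.97 of type A cells. The chloride/proton exchanger gene Clcn3 rose by 0.61 log2. The sodium-potassium-chloride cotransporter gene Slc12a2, which serves chloride entry from the blood side in type A cells, fell by 1.76 on the log2 scale. The ammonia channel gene Rhcg differed by -0.10 ± 0.11 with an adjusted p of 0.627 (edgeR quasi-likelihood test). Cytosolic carbonic anhydrase Car2 (0.33) and the ammonia transporter gene Rhbg (-0.44) passed with all 5 libraries, but their adjusted p was 0.102 and 0.0673 without the control in the same edgeR test, and each call was also lost without AKI 2.

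Transcription factors and Notch genes were split, where 7.98% of all genes tested were higher and 7.56% lower. Of 11 tested, Hmx2 and the Notch ligand gene Jag1 (1.55 log2) were higher, and Dmrt2, Elf5 and the Notch target gene Hes1 (-0.84 log2) were lower. Jag1 lay between 1.30 and 2.30 UMIs per 10000 in pendrin-positive and between 0.451 and 0.890 in type A cells. Foxi1 lay between 1.92 and 4.73 in pendrin-positive cells and between 2.19 and 5.30 in type A cells, and its difference of 0.13 ± 0.10 log2 did not pass (adjusted p = 0.487, edgeR quasi-likelihood test). Tfcp2l1, another factor of both classes, differed by -0.30 with an adjusted p of 0.0552.

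Of 19 genes for hormonal and local regulation, 6 were higher and 5 lower, beside 7.98% and 7.56% of all genes tested. The receptor genes for secretin (Sctr), prostaglandin E2 (Ptger3) and vasopressin (Avpr1a) rose by 1.25, 0.95 and 0.63 log2, and Fxyd2, a regulator of the sodium pump, by 1.22. Sctr was a low transcript, at 0.124 to 0.280 UMIs per 10000 in pendrin-positive and 0.0574 to 0.0975 in type A cells, and these ranges did not overlap. Nfat5, a tonicity-responsive factor gene, fell by 0.72 on the log2 scale (adjusted p = 6.53e-04, edgeR quasi-likelihood test). P2ry14, the receptor for UDP-glucose, and Hsd11b2, which protects the mineralocorticoid receptor from glucocorticoids, were lower by -1.24 and -0.50 with all 5 libraries, but without the control their adjusted p was 0.0954 and 0.0924, and both calls were also lost without CKD 1. The mineralocorticoid receptor gene Nr3c2 differed by -0.41 with an adjusted p of 0.0637. P2ry14 stood at 0.0383 UMIs per 10000 in pendrin-positive cells of the control against 0.692 in type A cells, but at 1.27 against 1.15 in AKI 2.

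In the lists of defence and stress genes, more members were lower than higher in pendrin-positive cells. Over all genes tested, 7.98% were higher and 7.56% lower. Of 14 innate defence and chemokine genes tested, 1 was higher and 7 were lower. Defb1, an antimicrobial peptide gene, was at 10.1 to 14.8 UMIs per 10000 against 23.6 to 28.2, a fall of 1.04 on the log2 scale. Lcn2, the iron-scavenging lipocalin NGAL, fell by 1.65, the macrophage growth factor gene Csf1 by 1.95 and the chemokine gene Cxcl16 by 0.76 (adjusted p at most 0.00196 for these 4 genes, edgeR quasi-likelihood test). Of 21 MHC class I and interferon genes, 12 were lower and none higher, with a median of -0.51 log2, among them Isg15 (-1.43), the tetherin gene Bst2 (-1.14) and the immunoproteasome gene Psmb8 (-0.96). Lcn2 and Isg15 were not lower in every library. Of 6 MHC class II genes, 1 was lower. Of 20 immediate-early and heat shock genes, 10 were lower and 1 higher, with the chaperone genes Hspb1 and Hspa1b at -1.28 and -1.31 log2.

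Of 17 tubular injury genes tested, 2 were higher and 4 lower, where 7.98% of all genes tested were higher and 7.56% lower. Spp1, osteopontin, rose by 0.64 log2, while Anxa1, an anti-inflammatory annexin gene, and Cd24a fell by 2.24 and 0.81 on the log2 scale. Of 17 p53 targets, 3 were higher and 1 was lower, the stress cytokine gene Gdf15 at -1.53 log2. Of 18 metallothionein and glutathione genes, 6 were higher and 1 lower, and those higher included, as log2 differences, Mt1 (0.95), Mt2 (1.14), the secreted peroxidase gene Gpx3 (1.03) and the heme oxygenase gene Hmox1 (1.37).

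Genes of neighbouring cells moved with this comparison. The summed level of the principal cell list (Aqp2, Aqp3, Avpr2, Fxyd4, Scnn1b and Scnn1g) was 16.5, 13.2, 16.8, 14.3 and 7.99 UMIs per 10000 in pendrin-positive cells and 36.6, 53.1, 51.5, 42.8 and 6.23 in type A cells, in the order control, AKI 1, AKI 2, CKD 1 and CKD 2, with all 6 genes detected in each. Of the 6, 4 were lower in pendrin-positive cells, led by the water channel gene Aqp2 (-1.55 log2) and Fxyd4 (-1.90), a regulator of the sodium pump. The thick ascending limb list (Slc12a1, Umod, Cldn10 and Ptger3) was at 5.64 to 10.96 in pendrin-positive and 1.63 to 9.64 in type A cells, and Umod, uromodulin, was higher by 1.32 log2. With only cells that held at most 15 UMIs per 10000 of the list of any other cell type, 541 genes were called in place of 1350, 443 of them shared. There Hmx2, Myo5a, Kit and Car15 stayed past the threshold, with Myo5a at 2.92, Car15 at 1.87 and Kit at -3.19 log2, while Foxi1 (-0.20), Gdf15 (0.22) and Aqp2 (0.46) changed sign without passing the test. The calls for Avpr1a, Ptger3, Hsd11b2, Lcn2, Cxcl16, Psmb8 and Spp1 were lost as well, with adjusted p from 0.0951 for Cxcl16 to 0.883 for Lcn2 in the edgeR test. The part of neighbouring cells in these genes was not tested further.

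Some cells carried the genes of both gates. Among cells with at least 10000 UMIs, at least 2 UMIs of Slc4a1 plus Aqp6 were found in 29.0% of pendrin-positive cells of the control (75 of 259). The share was 44.4% (16 of 36) and 17.9% (5 of 28) in the AKI libraries and 25.4% (16 of 63) in CKD 1, and none of the 12 cells of CKD 2 had them, for which the exact binomial upper limit is 26.5%. At least 2 UMIs of Slc26a4 were found in 19.6%, 18.97% and 19.5% of type A cells of the control, AKI 1 and AKI 2, and in 40.9% and 31.6% of those of CKD 1 and CKD 2. Cells with genes of both gates were deeper than the others in every library, with median UMIs of 26660 against 20373.5 in the control. Whether they are single cells or doublets was not tested.

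When these cells were left out, 1440 genes were called between the classes, 1176 of them among the 1350, and the leading differences were larger. This restriction selects again on the gate genes, so larger differences for genes that go with them are no separate support for the classes. Hmx2 then differed by 7.43, Syt7 by 7.01, Dcn by 6.02, Insrr by 4.67, Slc4a9 by 2.42 and Dmrt2 by -7.18 log2, all past the threshold of the edgeR quasi-likelihood test. No gene called in both fits changed its direction.

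The CKD libraries were then compared with the AKI libraries within pendrin-positive cells, to ask whether these cells differ between the end of dosing and the remodelling phase. Of 7631 genes tested, 0.0% were called by edgeR's quasi-likelihood test after Benjamini-Hochberg adjustment, 410 (5.37%) had an unadjusted p under 0.05, and DESeq2 called 1 gene. On simulated counts for this comparison (7718 genes), the same test recovered 93.4% of 4-fold and 38.5% of 2-fold changes. The simulation gave every gene the same spread between libraries (dispersion 0.025). Recovery for genes with a larger spread was therefore not measured. Klf4, a transcription factor gene, and Clca3a2, a chloride channel accessory gene, had the lowest adjusted p, 0.112 each.

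Klf4 was at 1.10 UMIs per 10000 in the control, 6.40 and 6.76 in AKI and 2.68 and 2.71 in CKD. The AKI and CKD values did not overlap, as was the case for 36.1% of all genes tested, and the difference was -1.17 ± 0.18 log2. Klf4 was the gene that DESeq2 called (adjusted p = 0.00654). Clca3a2 was at 0.172 and 0.332 in AKI, 0.00536 in CKD 1 and 0 in CKD 2. Klf4, Clca3a2 and the immediate-early genes Fosb and Nr4a1 were named after their values were seen.

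The marker genes of the class were lower in CKD than in AKI without passing the test. Hmx2 differed by -0.64 ± 0.19 log2 (adjusted p = 0.668, edgeR quasi-likelihood test), Insrr by -0.39 ± 0.19 (adjusted p = 0.935) and Slc4a9 by -0.18 ± 0.18 (adjusted p = 0.947). For each of the 3 genes the AKI and CKD values did not overlap, as was the case for 36.1% of all genes tested. Fosb was at 13.6 and 12.7 UMIs per 10000 in AKI and 7.14 and 7.15 in CKD, and Nr4a1 at 3.10 and 2.71 against 1.46 and 0.842. Lcn2 stood at 2.00 and 3.54 against 1.30 and 0.740, and Clu, the secreted chaperone clusterin, at 39.7 and 46.8 against 20.8 and 26.8. Spp1 overlapped, with 134 and 176 in AKI and 169 and 152 in CKD (0.17 ± 0.19 log2). Adjusted p-values for Fosb, Nr4a1, Lcn2, Clu and Spp1 lay between 0.396 and 0.949 in the edgeR test.

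Genes of immune and mesenchymal cells were highest in CKD 1, while the principal cell list, at 14.3 there, was higher in AKI 2 and the control, at 16.8 and 16.5. Vim, the intermediate filament of mesenchymal and immune cells, was at 2.96 UMIs per 10000 in CKD 1 and 0.255 in CKD 2, against 0.161 and 0.207 in AKI, and the MHC class II chain gene Cd74 at 5.48 and 0.536 against 0.581 and 1.36. The macrophage list (C1qa, C1qb, C1qc, Csf1r, Adgre1 and Lyz2) summed to 2.98 in CKD 1, 0.128 in CKD 2, 0.441 in AKI 1 and 0.968 in AKI 2, and the T lymphocyte list to 1.61, 0.128, 0.398 and 0.235. Without CKD 2, with its 13 cells, 292 genes were called, 257 of them higher in CKD, but the CKD arm was then CKD 1 alone. Without AKI 1, AKI 2 or CKD 1 none was called.

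Whether the step from AKI to CKD differed between the classes was tested as an interaction in edgeR's quasi-likelihood framework over both classes of the 4 injured libraries. Of 9373 genes tested, 579 (6.18%) had an unadjusted p under 0.05 and 21 (0.224%) passed, 12 (0.128%) toward a higher and 9 (0.0960%) toward a lower change in pendrin-positive cells. Hmx2, Insrr, Slc4a9 and Syt7, all higher in pendrin-positive than in type A cells, were among the 9.

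For Hmx2 the interaction was -2.67 ± 0.34 log2 (adjusted p = 7.70e-05, edgeR quasi-likelihood test). It combined lower values in CKD than in AKI in pendrin-positive cells, 2.74 and 2.78 against 4.25 and 5.12 UMIs per 10000, with higher values in type A cells, 0.667 and 1.01 against 0.271 and 0.139. Insrr had an interaction of -2.31 (adjusted p = 0.00177) and Slc4a9 one of -1.24 (adjusted p = 0.0193). In type A cells Insrr went from 0.362 and 0.107 in AKI to 0.845 and 0.809 in CKD, and Slc4a9 from 1.09 and 1.09 to 1.91 and 2.24. Slc26a4, a gate gene with no test, moved alongside in the same cells, from 1.05 and 0.459 to 2.54 and 2.43.

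None of the 3 interactions was called once cells with genes of both gates were left out, a restriction that takes away the type A cells that carried Slc26a4. Hmx2 then had an interaction of -0.03, Insrr of -1.34 and Slc4a9 of -0.43 log2, with an adjusted p of 1 for each in edgeR's quasi-likelihood test, and 4 genes remained of the 21. With cells of at least 10000 UMIs only, Hmx2 stood at -2.81 and Insrr at -2.35, both past the threshold, and 12 genes were called. Without CKD 2 the adjusted p of Hmx2 was 0.106 and that of Insrr 0.239, and without CKD 1 that of Insrr was 0.0990. Slc4a9 lost its call whichever of the 4 libraries was left out, with adjusted p from 0.112 to 0.199 in the edgeR test.

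**Figure D4:**
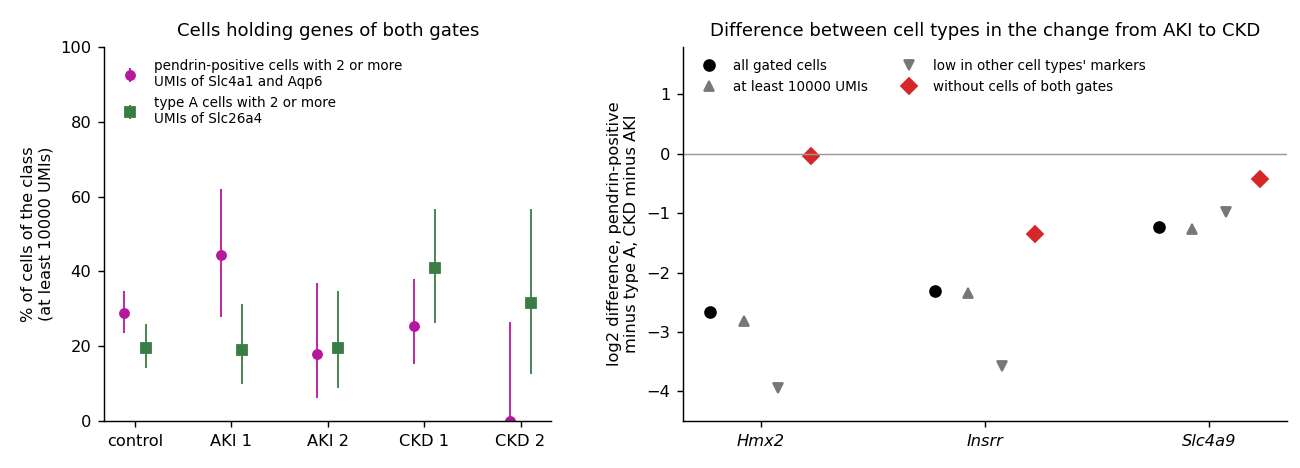
Left, percent of cells with at least 10000 UMIs that carried genes of both gates (y axis) in pendrin-positive and type A cells of the 5 libraries (x axis), with exact 95% binomial intervals. Right, interaction of class and stage in log2 (y axis) for Hmx2, Insrr and Slc4a9 (x axis) with all cells and under 3 restrictions on cells, where Hmx2 goes from -2.67 with all cells to -0.03 without cells that carried genes of both gates.

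The genes with the largest positive interactions were low transcripts in pendrin-positive cells. Sprr2f, a cornified envelope gene, was at 1.96 and 1.07 UMIs per 10000 in type A cells of AKI, 0.0894 and 0 in those of CKD, and at most 0.203 in pendrin-positive cells. Slc14a2, a urea transporter gene of the inner medulla, was at 0.311 and 0.836 in type A cells of AKI and 0.0325 and 0 in CKD. Aqp1, the water channel of the proximal tubule and thin limb, was at 1.95 in pendrin-positive cells of CKD 1 and 0 in CKD 2, and its interaction of 5.82 turned to -1.45 without CKD 1. The proximal tubule list was at 3.82 in pendrin-positive cells of CKD 1, against 0.230 to 1.09 in the other 4 libraries.

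The single control library allows a description of injury and no test. A gene was counted when both libraries of a stage lay on 1 side of the control and their mean lay past 2-fold. Of 8964 genes with enough UMIs, 504 (5.62%) were higher and 197 (2.20%) lower in AKI, and 412 (4.60%) were higher and 330 (3.68%) lower in CKD. The stages share the control, and 281 genes (3.13%) were higher and 66 (0.736%) lower in both. The median log2 ratio over all genes was 0.08 in AKI and -0.05 in CKD.

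Several lists had members above the control in both stages. In AKI, 11 of 17 tubular injury genes were higher, with a median of 1.70 log2, and in CKD 9 of 17, with a median of 1.18. Spp1 was at 27.2 UMIs per 10000 in the control, 134 and 176 in AKI and 169 and 152 in CKD, a ratio of 5.72 and 5.90 to the control for the stage means. Clu was at 4.07 in the control and 10.6 times higher in AKI and 5.85 times higher in CKD. The keratin genes Krt8 and Krt18, of the epithelial cytoskeleton, went from 3.08 and 2.74 in the control to 6.36 to 10.8 and 4.80 to 8.61 in the 4 injured libraries. T lymphocytes of the same libraries held at most 24.6 of Spp1, 4.25 of Clu and 1.96 of Krt8, under the level of the pendrin-positive cells in each library.

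Of 16 innate defence genes, 14 were higher in AKI and 12 in CKD, with medians of 2.38 and 2.28 log2. Lcn2 was at 0.0506 in the control and 54.8 times higher in AKI and 20.1 times higher in CKD, while T lymphocytes held 1.84 in AKI 1, close to the 2.00 of the pendrin-positive cells there. Of 22 MHC class I and interferon genes, 17 were higher in AKI and 15 in CKD, with medians of 1.76 and 1.62. H2-K1 was at 1.85 in the control, 4.81 and 7.01 in AKI and 4.91 and 4.01 in CKD, and B2m, the light chain of class I, at 1.18, then 3.14 and 4.29, then 4.65 and 2.53. T lymphocytes, which express class I strongly, held 14.3 to 19.5 of H2-K1 and 20.4 to 27.3 of B2m, and the T lymphocyte list in pendrin-positive cells went from 0.0368 in the control to 0.128 to 1.61 in the injured libraries. The macrophage list was at 0.198 in the control, 0.441 and 0.968 in AKI and 2.98 and 0.128 in CKD. Of 6 MHC class II genes, 4 were higher in AKI and 3 in CKD, with medians of 1.05 and 2.46 log2. The part of immune cells in these levels was not tested.

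Of 17 p53 targets, 7 were higher in AKI and 6 in CKD. Cdkn1a, the cell cycle inhibitor p21, was at 0.296 in the control, 1.73 and 1.99 in AKI and 1.499 and 0.740 in CKD. Of 20 immediate-early and heat shock genes, 4 were higher in AKI and none in CKD. Socs3 and Cebpd, both targets of interleukin-6 signalling, went from 0.765 and 1.68 to 2.89 to 3.20 and 4.06 to 7.38. Fgg, the fibrinogen gamma chain, had a single UMI in the control, at 0.00153, and reached 1.36 and 0.595 in AKI and 1.14 and 2.71 in CKD. The tight junction gene Cldn4 went from 1.21 to 6.21 and 3.75 in AKI and 3.79 and 3.04 in CKD.

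**Figure D5:**
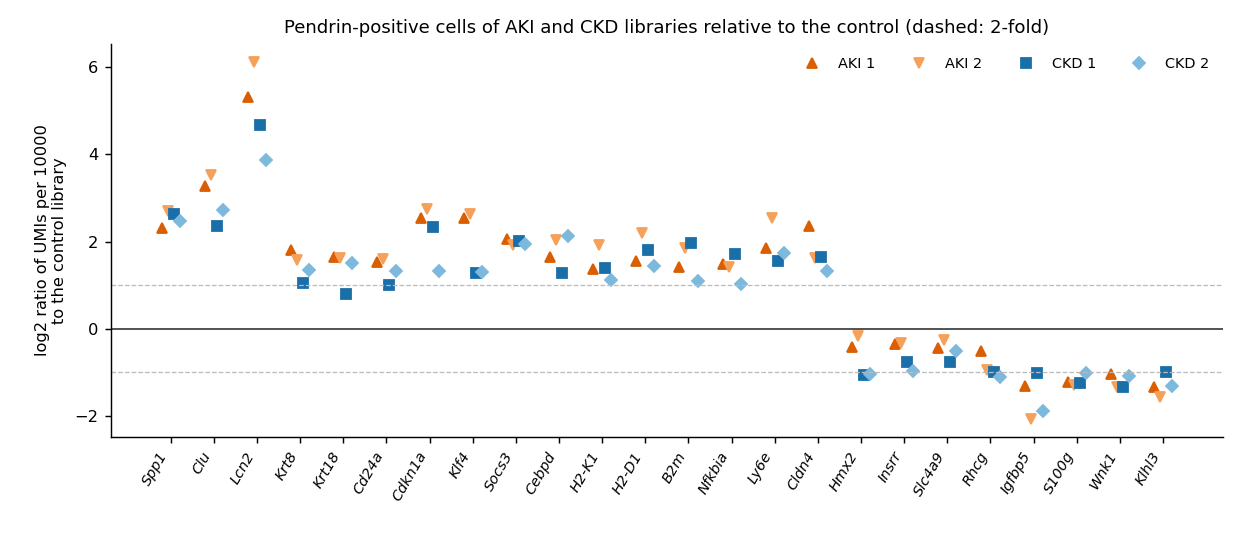
Log2 ratio of each AKI and CKD library to the control in pendrin-positive cells (y axis) for 24 genes (x axis), with 1 point per library and dashed lines at 2-fold. Spp1, Clu and Lcn2 lie above 0 in all 4 injured libraries, with stage means of 5.72 to 54.8 times the control, and Igfbp5 and S100g lie below 0 in all 4.

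No gene of the V-ATPase and acid-base transport lists was higher past 2-fold in either stage. None of the 20 V-ATPase genes passed in AKI and 1 was lower in CKD, Atp6v1b1, at 5.03 UMIs per 10000 in the control, 3.39 and 2.88 in AKI and 2.32 and 2.65 in CKD. Of 20 acid-base and chloride transport genes, 2 were lower in each stage, beside 2.20% of all genes in AKI and 3.68% in CKD. Rhcg, an ammonia channel gene, was at 6.82 in the control, 4.80 and 3.51 in AKI and 3.42 and 3.19 in CKD. Wnk1, a kinase that regulates salt transport, went from 4.87 to between 1.92 and 2.37, and Klhl3, which directs the breakdown of WNK kinases, from 0.575 to between 0.194 and 0.289. S100g, a calcium-binding protein of the distal nephron, went from 83.1 to between 34.1 and 41.4, and Igfbp5, a binding protein of insulin-like growth factors, from 10.5 to between 2.50 and 5.21. T lymphocytes of the control held 20.1 of S100g and 2.32 of Igfbp5, and those of the injured libraries held less, at most 3.21 and 0.613. Egf went from 2.44 to at most 0.166 in the gated cells, but T lymphocytes of the control held more of it, at 7.24.

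The share of intercalated cells that were pendrin-positive was the last measure. Of cells that passed on Atp6v1g3 and Ptprc, 36.3% were pendrin-positive in the control (95% exact binomial interval 32.9 to 39.7). The AKI libraries had 17.1% (12.4 to 22.7) and 23.2% (16.1 to 31.6), and the CKD libraries 21.3% (18.6 to 24.1) and 20.3% (11.3 to 32.2). All 4 injured libraries lay under the control here, and AKI and CKD overlapped. With only cells of at least 10000 UMIs CKD 1 did not lie under it, since the shares were 49.7% in the control, 31.9% and 34.1% in AKI and 52.9% and 35.3% in CKD. Fewer cells of the class and less Slc26a4 per cell cannot be told apart in such a share. After each cell was thinned to 2000 UMIs, the shares were 36.5%, 16.1%, 20.7%, 19.6% and 20.5% in the same order.

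With a limit of 15% mitochondrial UMIs the order changed, since the control then had 15.4%, under the 24.7% of AKI 2. Of the cells that met 1 of the 2 rules, 56.4% were pendrin-positive in the control, 35.8% and 38.7% in AKI and 60% and 36.1% in CKD, so CKD 1 lay with the control. The mean of CKD exceeded that of AKI by 10.8 percentage points in this ratio, and the difference was -1.15 points without CKD 1. No test was run, since 2 against 2 libraries cannot reach an exact two-sided p under 0.333, and the intervals cover counting error only.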

How the data were processed

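Gene-by-cell matrices of UMI counts for whole kidney were used from 1 control, 2 AKI and 2 CKD libraries. Per the labels, these deposited counts were made by the authors with Cell Ranger 7.2.0, and per the file headers with Cell Ranger 5.0.0. The control was annotated on mm10 and the other libraries on GRCm39, so genes were joined by identifier. Coordinates are those of the GENCODE annotation of GRCm39. The removal of background and of doublets described for the study was not applied to the deposited counts used here.

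Barcodes with 200 or more genes and no more than 30% of UMIs from mitochondria were kept, 60043 in all. UMIs were summed per library and class (at least 10 cells), genes were filtered with filterByExpr, scaled by TMM and tested with edgeR 4.0.16 (quasi-likelihood test, Benjamini-Hochberg adjustment, threshold 0.05) in R 4.3.3 with limma 3.58.1. DESeq2 1.42.0 served as an alternative, on the same counts. Other steps used Python 3.11.15, numpy 2.4.6, scipy 1.17.1, pandas 2.3.3 and matplotlib 3.10.9. Genes of the gates were not tested. Levels are UMIs per 10000 UMIs of the class, pendrin-positive sums ran from 391806 to 6523453 UMIs, and intervals (95%, exact Poisson or exact binomial) cover counting error only. Principal cells had at least 3 UMIs of Aqp2 and T lymphocytes at least 2 of CD3 genes.

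The text names the 10 largest rises and falls that passed with every library on 1 side, the markers, and list members by p or level. Some genes that met this rule are not reported here. Klf4, Clca3a2, Vim, Nr4a1, Fosb, Aqp1, Atp6v1b1, Rhbg, Rhcg, Nr3c2, P2ry14, Sctr, Krt18, Socs3, Cebpd, Fgg, Cldn4, Egf, Igfbp5, S100g and Klhl3 were named after their values were seen. The class, its markers and the gene lists were chosen with earlier results of these data known. Tested on simulated counts, the comparison of classes recovered 94.9% of 2-fold changes (8745 genes) and the interaction 16.7% of 2-fold and 73.4% of 4-fold changes (9274 genes). Alternatives were DESeq2, RLE scaling, no filter, a 15% mitochondrial limit, at least 4 UMIs of Slc26a4, removal of shared barcodes, each library left out, the replicate number as a block and, chosen after seeing the data, 3 restrictions on cells.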

Additional observations from a re-analysis of the deposited data

Results flagged for a closer look

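The change from AKI to CKD differed between pendrin-positive and type A cells for 21 genes by the test of the difference itself (edgeR's quasi-likelihood test of the interaction, 2 libraries a stage). Values are the log2 change in pendrin-positive cells minus that in type A cells.

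Toward a higher change in pendrin-positive cells these were Sprr2f (6.83), Slc14a2 (6.54), Aqp1 (5.82), Bst1 (4.69), Sprr1a (3.38), Tmem252 (3.18), Defb29 (3.15), Slc4a4 (2.79), Arhgdib (2.06), Apela (1.91), Apoe (1.89) and Ly6a (1.56). Ly6a, a surface antigen gene, was at 7.99 and 12.9 UMIs per 10000 in type A cells of AKI and 4.10 and 3.28 in CKD, while in pendrin-positive cells it was at 3.29 and 4.84, then 3.98 and 4.90. For Apoe, the apolipoprotein E gene, T lymphocytes held 12.4 and 17.6 UMIs per 10000 in AKI, above both classes.

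Toward a lower change these were Hmx2 (-2.67), Insrr (-2.31), Acot3 (-2.20), Syt7 (-2.02), 1110012L19Rik (-1.53), Exoc3l4 (-1.44), Slc4a9 (-1.24), Kng2 (-1.22) and Klk1 (-1.17). Klk1, the tissue kallikrein gene, was at 18.1 and 26.3 in pendrin-positive cells of AKI and 25.6 and 31.9 in CKD, and in type A cells at 9.56 and 16.2, then 39.3 and 33.5. None of the 21 calls held under every alternative.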

How the results depend on the processing

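For CKD against AKI in pendrin-positive cells, DESeq2 called 1 gene (1 lower), no low-count filter 199 (176 higher, 23 lower), the 15% mitochondrial limit, which left CKD 2 out, 304 (275 higher, 29 lower), cells of at least 10000 UMIs 13 (3 higher, 10 lower) and removal of cells with genes of both gates 1 (1 lower). Leaving out each library gave 0 to 292 calls, 0 to 257 higher and 0 to 35 lower, the highest without CKD 2. For the classes, DESeq2 called 735 genes (384 higher, 351 lower), and the limit of 15 UMIs per 10000 of another cell type 541 (285 higher, 256 lower). The 15% mitochondrial limit gave 429 higher. Leaving out each library gave 854 to 1392, 426 to 688 higher and 428 to 704 lower, the lowest without the control.

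For the interaction, DESeq2 called 5 genes (3 higher, 2 lower), no low-count filter 56 (41 higher, 15 lower), the 15% mitochondrial limit 48 (33 higher, 15 lower) and removal of shared barcodes 36 (24 higher). Cells of at least 10000 UMIs gave 12 (6 higher), the limit on other cell types 2 (0 higher, 2 lower), removal of cells with genes of both gates 4 (4 higher, 0 lower) and single libraries left out 4 to 42 (3 to 36 higher, 1 to 11 lower), the lowest without CKD 2. The restrictions to 10000 UMIs, on other cell types and on genes of both gates were chosen after seeing the data. The cause of these shifts was not tested.

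Replicate numbers did not pair the libraries (correlation of deviations 0.0177 over 7631 genes). With the replicate block, 29 genes were called between CKD and AKI (20 higher, 9 lower) and 92 in the interaction (58 higher, 34 lower).

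With single libraries left out, the difference of Spp1 between CKD and AKI ran from -0.0150 log2 (without AKI 1) to 0.34 and that of Cd74 from -0.69 (without CKD 1) to 2.64. Between the classes Foxi1 (-0.20), Gdf15 (0.22) and Aqp2 (0.46) turned with the limit on other cell types and Rhcg (0.000247) without CKD 1. In the interaction Sprr2f (-1.60) and Klk1 (1.21) turned with the 15% limit, Kng2 (0.0171) without cells with genes of both gates while Aqp1 ran from -1.45 (without CKD 1) to 6.71 with single libraries left out. Of 63 named genes called between the classes, 50 kept their call in every alternative that tested them, and of the 21 in the interaction none did. Not every alternative tested every gene, and the limit on other cell types tested 1051 of the 1350 genes called between the classes.

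The share of pendrin-positive cells was 0.63 percentage points higher in CKD than in AKI. The difference was -4.22 with at least 4 UMIs of Slc26a4, 5.34 without cells holding markers of another type, 11.1 with cells of at least 10000 UMIs and 4.91 without cells with genes of both gates, and -2.42 to 3.67 without single libraries. Removal of every cell with 3 or more UMIs of another type left 3, 1, 1, 13 and 1 pendrin-positive cells, so none of the tests could be fitted. The 13 cells of CKD 2 and the low depth of CKD 1 limit the precision of every CKD value.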

Other observations

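Of 97 nuclear genes of the respiratory chain, 29 were higher and 1 was lower in pendrin-positive than in type A cells (edgeR's quasi-likelihood test), with a median of 0.23 log2. Over all genes tested, 7.98% were higher and 7.56% lower. Of 14 glycolysis genes, 2 were higher and 1 was lower, beside 7.98% and 7.56% of all genes tested. None of 76 cytosolic ribosomal protein genes passed in either direction, with a median of -0.03. The 4 cell cycle genes with enough UMIs did not pass.

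The cells that passed on Atp6v1g3 and Ptprc but met neither rule made up 35.8% of intercalated cells in the control, 52.3% and 40.0% in AKI and 64.6% and 43.8% in CKD. Among cells of at least 10000 UMIs these shares were 13.1%, 16.8%, 15.9%, 10.1% and 8.82% in the same order. Of these 1044 cells, 757 held none of Hmx2, Insrr and Slc4a9.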
